A study of Mus musculus with 13 samples.

Results

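The MHC class II genes and their transcriptional coactivator Ciita were followed through the myeloid cells of the mouse spinal cord in experimental autoimmune encephalomyelitis (EAE), a T cell driven model of multiple sclerosis. The 8 genes were chosen by name, as H2-Aa, H2-Ab1, H2-Eb1, H2-DMa, H2-DMb1, H2-DMb2, Cd74 and Ciita, and make up 8 of the 22598 features of the count matrix. All 8 were found there, and all 8 passed the filter on low counts in each fit reported. Each was measured as unique molecular identifiers (UMIs, single captured transcripts) per 1000000 UMIs of a class (CPM), after summing the cells of a class within a library, and as the share of cells with at least 1 UMI.

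MHC class II molecules present peptides from the endosome to CD4+ T cells. H2-Aa and H2-Ab1 encode the alpha and beta chains of I-A, and H2-Eb1 encodes the beta chain of I-E. Cd74, the invariant chain, fills the groove and escorts new class II molecules to the endosome, where H2-DM, made of the H2-DMa chain and either the H2-DMb1 or the H2-DMb2 chain, exchanges the remnant of Cd74 for peptide. Ciita binds no DNA itself: it is recruited to class II promoters by RFX, CREB and NF-Y, and interferon-gamma induces it, in part through Irf1. Dendritic cells hold the class II programme without stimulation, whereas microglia of the healthy cord hold it at low levels and raise it in neuroinflammation.

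The study profiled sorted live cells from spinal cords of Cx3cr1YFPCreERT2:R26tdTomato mice by 10x Genomics single-cell RNA sequencing. In this line a tamoxifen-dependent Cre driven by Cx3cr1 leaves a lasting tdTomato mark in microglia and other long-lived Cx3cr1 cells, border macrophages among them, so that a resident and an infiltrating sort gate could be drawn. The groups were chronic EAE resident cells (3 libraries, 8771 cells), peak EAE resident cells (2 libraries, 1267 cells), control resident cells (3 libraries, 6205 cells), chronic EAE infiltrating cells (3 libraries, 3524 cells) and peak EAE infiltrating cells (2 libraries, 2381 cells), which the labels call biological replicates. All groups carried the same genotype. Cell classes and cluster numbers were the authors' own, and libraries are named here by letter within their group.

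Libraries held between 4111257 and 22450385 UMIs and between 433 and 4410 cells. The class named microglia made up 90.6% to 99.6% of each resident library, but also 81.2% of chronic infiltrating library b, against 1.80% and 13.4% of its fellow libraries a and c, so microglia of infiltrating libraries stay out of the comparisons of microglia and are given apart, though they count in sums over all cells of a library. The deposited cell table gives each library 1 of 4 codes in a column headed SLX, lettered A to D here. They were taken as sequencing pools, which the table does not state, and are called pools below. The peak libraries all belonged to pool C, together with control b, except for peak infiltrating a, which shared pool A with control a. Libraries a and b of chronic EAE, from both gates, made up pool D, and both chronic c libraries shared pool B with control c. Microglia held more UMIs per cell at peak, with medians of 2856, 2465.5 and 3544 UMIs per cell in the chronic libraries, 8446.5 and 8521 in the peak libraries and 3635, 4476 and 3017 in the control libraries. The median percent of mitochondrial UMIs per cell, over all cells of a library, was 1.00, 1.05 and 1.49 in chronic resident, 2.65 and 2.30 in peak resident and 1.09, 1.46 and 1.09 in control libraries, highest at peak, and its part in the results was not tested. Of 22096 distinct barcodes, 52 occurred in more than 1 library. The 5 microglial markers P2ry12, Tmem119, Sall1, Siglech and Sparc summed to 1992 to 2911 CPM in chronic, 2198 to 2503 CPM in peak and 8249.7 to 10031 CPM in control microglia. Both depth and these sums moved with stage. The genes kept their peak-to-control calls when cells were thinned to 1 depth (8 of 8, where 1812 of all genes were called), and the part of the marker sums in the results was not tested.

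The class II genes lie together on chromosome 17 of GRCm38: H2-DMa at chr17:34119541-34139101 (plus strand), H2-DMb2 at chr17:34143307-34151555 (plus strand), H2-DMb1 at chr17:34153072-34160230 (plus strand), H2-Ab1 at chr17:34257689-34269419 (plus strand), H2-Aa at chr17:34282744-34287823 (minus strand) and H2-Eb1 at chr17:34305867-34316674 (plus strand). Ciita lies at chr16:10480059-10528418 (plus strand). H2-DMb1 and H2-DMb2 are neighbouring, highly similar copies, so reads that fit both may have been assigned unevenly or dropped, and the values of each are uncertain to that degree.

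The RefSeq promoters of 4 genes, from 250 bases before to 50 after RefSeq's gene start on the gene's strand (GRCm38.p6), are shown because class II promoters are read through a shared module, whose Y box is an inverted CCAAT for NF-Y and whose X box is bound by RFX. Capitals mark matches to CCAAT on either strand (ATTGG where inverted), to CTGATTGG, a Y box core that contains ATTGG, to AGCAAC, and to the extended X1 box motif, which overlaps it. The windows are chr17:34287774-34288073 for H2-Aa, chr17:34305617-34305916 for H2-Eb1, chr17:34152941-34153240 for H2-DMb1 and chr17:34144999-34145298 for H2-DMb2. For H2-DMb1 and H2-DMb2 that start lies inside the span given above, whose annotation begins the gene further upstream.
H2-Aa: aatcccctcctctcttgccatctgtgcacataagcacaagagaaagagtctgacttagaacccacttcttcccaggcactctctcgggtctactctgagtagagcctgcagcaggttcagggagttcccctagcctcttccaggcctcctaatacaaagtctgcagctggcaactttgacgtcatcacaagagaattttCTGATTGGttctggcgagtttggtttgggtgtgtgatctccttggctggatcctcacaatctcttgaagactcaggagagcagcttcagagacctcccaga
H2-Eb1: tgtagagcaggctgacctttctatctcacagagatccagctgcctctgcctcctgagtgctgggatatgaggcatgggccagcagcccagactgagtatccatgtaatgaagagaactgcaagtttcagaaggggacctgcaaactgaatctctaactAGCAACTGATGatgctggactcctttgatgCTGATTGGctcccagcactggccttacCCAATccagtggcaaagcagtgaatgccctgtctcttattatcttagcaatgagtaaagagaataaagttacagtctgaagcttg
H2-DMb1: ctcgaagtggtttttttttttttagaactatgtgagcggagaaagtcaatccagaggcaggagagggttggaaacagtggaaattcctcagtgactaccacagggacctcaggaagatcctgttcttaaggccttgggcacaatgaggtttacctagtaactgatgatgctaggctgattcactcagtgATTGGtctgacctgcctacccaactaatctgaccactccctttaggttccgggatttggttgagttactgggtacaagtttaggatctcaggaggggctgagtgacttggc
H2-DMb2: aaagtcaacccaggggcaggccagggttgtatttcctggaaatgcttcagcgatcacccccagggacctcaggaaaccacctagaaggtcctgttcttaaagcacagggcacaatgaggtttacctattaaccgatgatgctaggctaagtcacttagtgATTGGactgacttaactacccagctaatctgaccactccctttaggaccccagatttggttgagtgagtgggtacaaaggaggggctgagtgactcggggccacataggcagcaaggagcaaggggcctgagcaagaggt
CTGATTGG began at base -51 of H2-Aa and at base -62 of H2-Eb1, and 1346 of 32851 mouse promoters of the same length hold it on either strand. Only H2-Eb1 among these 4 held AGCAAC (base -92; 14.8% of promoters) and the extended X1 box motif (base -91; 0.192% of promoters). H2-DMb1 and H2-DMb2 held an inverted CCAAT at bases -61 and -90, a motif in 37.4% of promoters. RefSeq also gave windows for H2-DMa, which are not shown. The window that starts at chr17:34125268 held an inverted CCAAT at base -198, and the window that starts at chr17:34122582 held none of these motifs. These matches describe letters in the windows and say nothing of binding. Only exact matches were searched, so a window without one may still hold a variant of the box.

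In microglia at peak EAE all 8 genes were higher than in control microglia by edgeR's quasi-likelihood test (8 of 8 called, where 30.0% of 11078 genes were called in either direction and 16.0% higher). The antigen-presenting chains and Ciita had larger log2 fold changes than the H2-DM chains. H2-Ab1 stood at 3677 and 3877 CPM in peak libraries a and b, against 35.2, 21.6 and 26.7 CPM in control libraries a, b and c, a log2 fold change of 7.40 ± 0.49 (SE; adjusted p = 1.1e-06). H2-Aa, its partner chain, stood at 2984 and 3072 CPM at peak, against 10.2, 3.51 and 6.39 CPM in controls (log2 fold change 9.11 ± 0.74, adjusted p = 3.0e-06). H2-Eb1 stood at 3604 and 3249 CPM at peak, against 7.21, 3.14 and 6.20 CPM in controls (log2 fold change 9.55 ± 0.69, adjusted p = 1.9e-06). For these chains the lowest peak library lay above the highest control library, and both peak libraries were close to each other. Cd74, encoded apart on chromosome 18, stood at 9117 and 11180.5 CPM at peak, against 150.1, 63.0 and 97.2 CPM in controls (log2 fold change 6.93 ± 0.77, adjusted p = 3.4e-05), again without overlap.

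Ciita was all but undetected in control microglia, with 0, 0 and 5 UMIs in the 3 libraries, against 718 and 608 UMIs in the 2 peak libraries. That is 171 and 96.0 CPM at peak, against 0, 0 and 0.484 CPM in controls. The fitted log2 fold change was 9.41 ± 0.63 (adjusted p = 1.1e-06), a value that depends on how zeros are offset and became 13.01 without control library c, the only control library with Ciita UMIs. Taking the larger of each control library's value and its floor of 3 UMIs (at most 0.554 CPM), the lower peak library was at least 173-fold higher. The H2-DM chains were present in control microglia already. H2-DMa stood at 758 and 932 CPM at peak, against 472, 398 and 494 CPM in controls (log2 fold change 1.23 ± 0.26, adjusted p = 0.00342). H2-DMb1 stood at 505 and 666 CPM at peak, against 313, 241 and 309 CPM in controls (log2 fold change 1.36 ± 0.31, adjusted p = 0.0055). H2-DMb2 stood at 29.1 and 37.9 CPM at peak, against 12.7, 9.97 and 11.6 CPM in controls (log2 fold change 1.89 ± 0.37, adjusted p = 0.00202). No peak library of an H2-DM gene overlapped the controls, yet without peak library b the calls of H2-DMa (adjusted p = 0.0506) and H2-DMb1 (adjusted p = 0.0845) were lost.

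In microglia of chronic EAE, 6 of the 8 genes were higher than in control microglia and none was lower (28.3% of 11078 genes called, 15.0% higher). Cd74 stood at 15734, 26273 and 3085 CPM in the chronic libraries, in the order a to c, against 150.1, 63.0 and 97.2 CPM in the controls (log2 fold change 7.67 ± 0.78, adjusted p = 1.9e-05). H2-Aa stood at 1654, 2976 and 530.01 CPM in chronic libraries (log2 fold change 8.48 ± 0.71, adjusted p = 4.4e-06) and H2-Eb1 at 1049.5, 1976 and 403 CPM (log2 fold change 8.15 ± 0.65, adjusted p = 2.8e-06). H2-Ab1 stood at 897, 1496 and 537 CPM (log2 fold change 5.61 ± 0.44, adjusted p = 2.8e-06). In each of these genes library c was the lowest and library b the highest of the chronic libraries, and all 3 lay above every control library. Ciita counted 52, 65 and 63 UMIs in chronic libraries, or 7.70, 10.0 and 3.51 CPM, with a fitted log2 fold change of 5.30 ± 0.70 (adjusted p = 1.6e-04; 8.90 without control library c). Its lowest chronic library was at least 6.33-fold above the same control value or floor. T cells of the chronic resident libraries, taken as a background below, ran from 0 to 14.7 CPM of Ciita (7 UMIs in 228 cells). That range holds all 3 chronic values of microglia. All 7 UMIs lay in library b (139 T cells), while the 53 and 36 T cells of libraries a and c held 0. The upper end of the range thus comes from library b alone.

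The H2-DM chains had small log2 fold changes between chronic and control microglia. H2-DMb1 passed the threshold narrowly, at 412, 478 and 290.4 CPM in chronic and 313, 241 and 309 CPM in control libraries (log2 fold change 0.92 ± 0.29, adjusted p = 0.0292), and the groups overlapped. Its call was lost with the pool as a term (log2 fold change 0.17, adjusted p = 0.944), with microglia thinned to 1000 UMIs per cell (adjusted p = 0.0589), and without any 1 of chronic a, chronic b or the control libraries. H2-DMa had a log2 fold change of 0.45 ± 0.24 (adjusted p = 0.167; -0.0041 when scaled by library size alone), and H2-DMb2 of 0.52 ± 0.35 (adjusted p = 0.266; -0.48 with the pool as a term), neither past the threshold. These log2 fold changes use scaling factors from all genes, and scaling by library size alone, as in CPM, moved the median of all genes by -0.45 between chronic and control and by -0.32 between peak and control. Only without chronic library c was H2-DMb2 called (adjusted p = 0.0155).

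**Figure D1:**
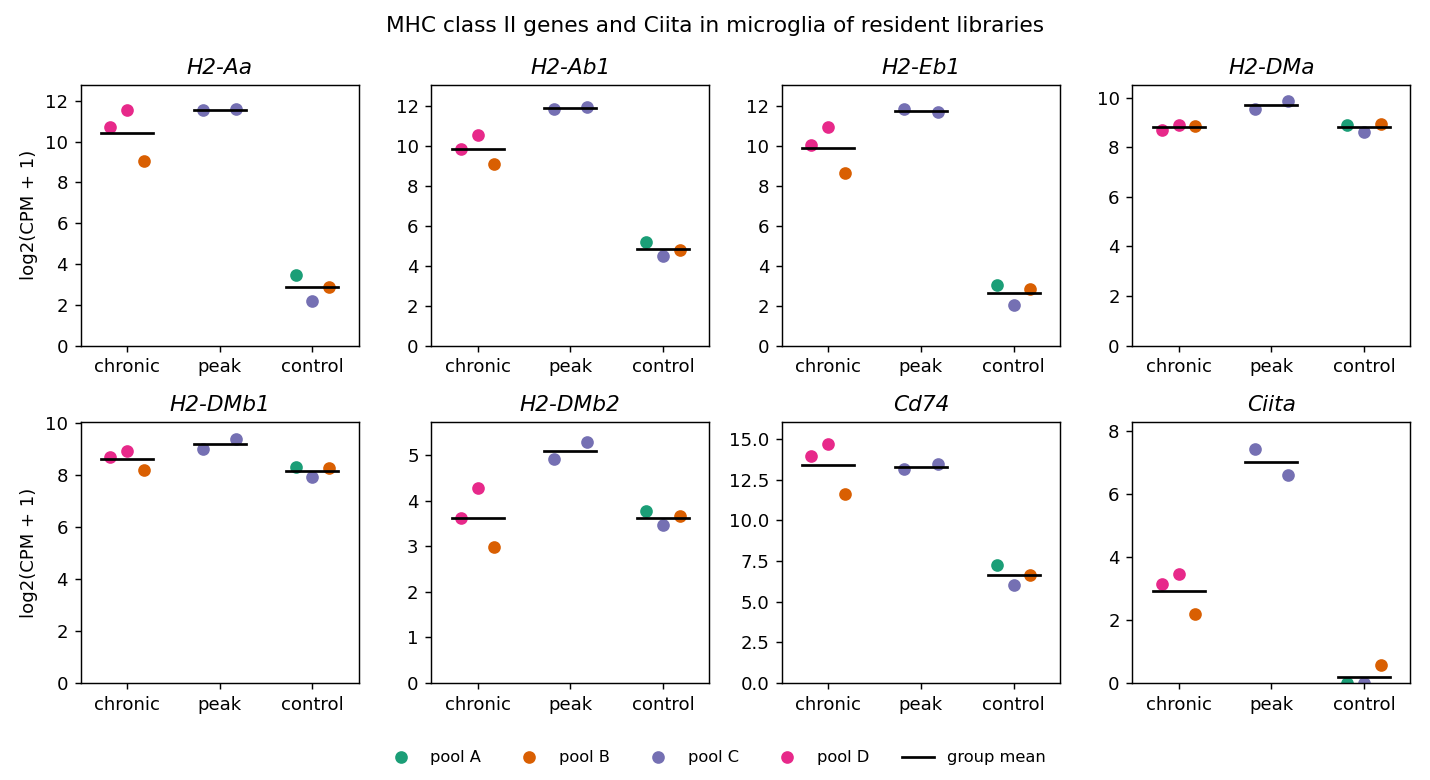
Level of each of the 8 genes in microglia of the resident gate, as log2(CPM + 1), with 1 point per library coloured by pool and a bar at the mean of the log2 values, for chronic, peak and control libraries. H2-Aa, H2-Ab1, H2-Eb1, Cd74 and Ciita lie above all controls in every EAE library, chronic library c is the lowest chronic point of these genes, and the H2-DM genes lie within a narrow range.

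Between chronic and peak microglia, 4 of the 8 genes were lower in chronic EAE and none was higher (21.7% of 11078 genes called, 11.9% lower). Ciita had the largest difference of the 8, at 7.70, 10.0 and 3.51 CPM in chronic libraries, against 171 and 96.0 CPM in peak libraries (log2 fold change -4.12 ± 0.43, adjusted p = 2.2e-04). H2-Ab1 fell to 897, 1496 and 537 CPM in chronic libraries, against 3677 and 3877 CPM at peak (log2 fold change -1.79 ± 0.40, adjusted p = 0.0103). No chronic library of either gene reached a peak library. H2-DMb2 (log2 fold change -1.36 ± 0.37, adjusted p = 0.0214) and H2-DMa (-0.78 ± 0.26, adjusted p = 0.0475) were also called. H2-Eb1 (-1.40 ± 0.51, adjusted p = 0.0655), H2-Aa (-0.64 ± 0.56, adjusted p = 0.423) and H2-DMb1 (-0.44 ± 0.31, adjusted p = 0.322) were not. Cd74 was not called either, with 15734, 26273 and 3085 CPM in chronic libraries, against 9117 and 11180.5 CPM in peak libraries (log2 fold change 0.74 ± 0.66, adjusted p = 0.437). Chronic libraries a and b lay above both peak libraries and library c below them, and without library c Cd74 was called higher in chronic EAE (log2 fold change 1.24, adjusted p = 0.0305). The 3 comparisons of microglia share libraries, so their values are not independent of each other.

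The chronic-to-peak calls rested on few libraries. H2-DMa lost its call without any 1 of chronic a, chronic b, control a, control c or either peak library, and with cells thinned to 1000 UMIs (adjusted p = 0.0539), as did H2-DMb2 with thinning (adjusted p = 0.127). H2-Eb1 was called lower in chronic EAE with thinning (log2 fold change -1.67, adjusted p = 0.0261) and without chronic b or chronic c. With either peak library left out, Ciita was the only gene of the 8 still called, and H2-Ab1 had an adjusted p of 0.05005 without library a and 0.0556 without library b. Both peak resident libraries are in pool C and no chronic library is, so the stage and the pool cannot be told apart except through the control libraries of their pools. With the pool as a term, which leaves chronic library c as the only chronic library set against a control of its own pool, Ciita (log2 fold change -10.04), H2-Ab1 (-3.30), H2-Aa (-3.56), H2-Eb1 (-4.24) and H2-DMb2 (-2.69) were called lower in chronic EAE, H2-DMa was not, and Cd74 stood at -2.54 (adjusted p = 0.138). With the same term all 8 genes kept their call between peak and control (30.0% of all genes called without the term), and H2-Aa (6.63), H2-Eb1 (6.28), Cd74 (5.25), H2-Ab1 (4.59) and Ciita (3.07) kept theirs between chronic and control. Of all genes, 564 were called with the term between chronic and control and 70 between chronic and peak, against 3140 and 2401 without it.

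The proportions of H2-Aa and Cd74 to H2-Ab1 in EAE cells set pools C and D apart from each other and from pools A and B, while that of H2-Eb1 overlapped across pools. Summed per class and library, H2-Aa UMIs per H2-Ab1 UMI ran from 1.84 to 2.88 in the 11 sums of pool D (chronic a and b), from 0.987 to 1.48 in the 6 sums of pool B (chronic c), from 1.31 to 1.54 in the 3 sums of pool A (peak infiltrating a) and from 0.613 to 0.870 in the 7 sums of pool C (peak resident and peak infiltrating b). Pool D did not overlap any other pool and pool C did not either, although each pool mixes several classes. Cd74 UMIs per H2-Ab1 UMI ran from 11.98 to 17.6 in pool D, 4.50 to 7.11 in pool B, 4.83 to 5.71 in pool A and 1.85 to 2.99 in pool C, with pools A and B overlapping. H2-Eb1 UMIs per H2-Ab1 UMI ran from 0.800 to 1.94 in pool D, 0.751 to 1.30 in pool B, 0.715 to 1.10 in pool A and 0.763 to 0.991 in pool C. Control microglia, with few UMIs of these chains, gave 0.239 in pool B, 0.289 in pool A and 0.162 in pool C for H2-Aa per H2-Ab1. Within peak EAE the 2 infiltrating libraries, in different pools, also differed in Ciita: 53.8 CPM in monocytes of library a (pool A) and 281 CPM in those of library b (pool C). Control microglia held too few Ciita UMIs to show a difference between pools: 0 in library a (pool A), 0 in library b (pool C) and 5 in library c (pool B). The part of the pool in the Ciita, H2-Ab1 and Cd74 differences between chronic and peak cells was not tested beyond the fit with the pool as a term.

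**Figure D2:**
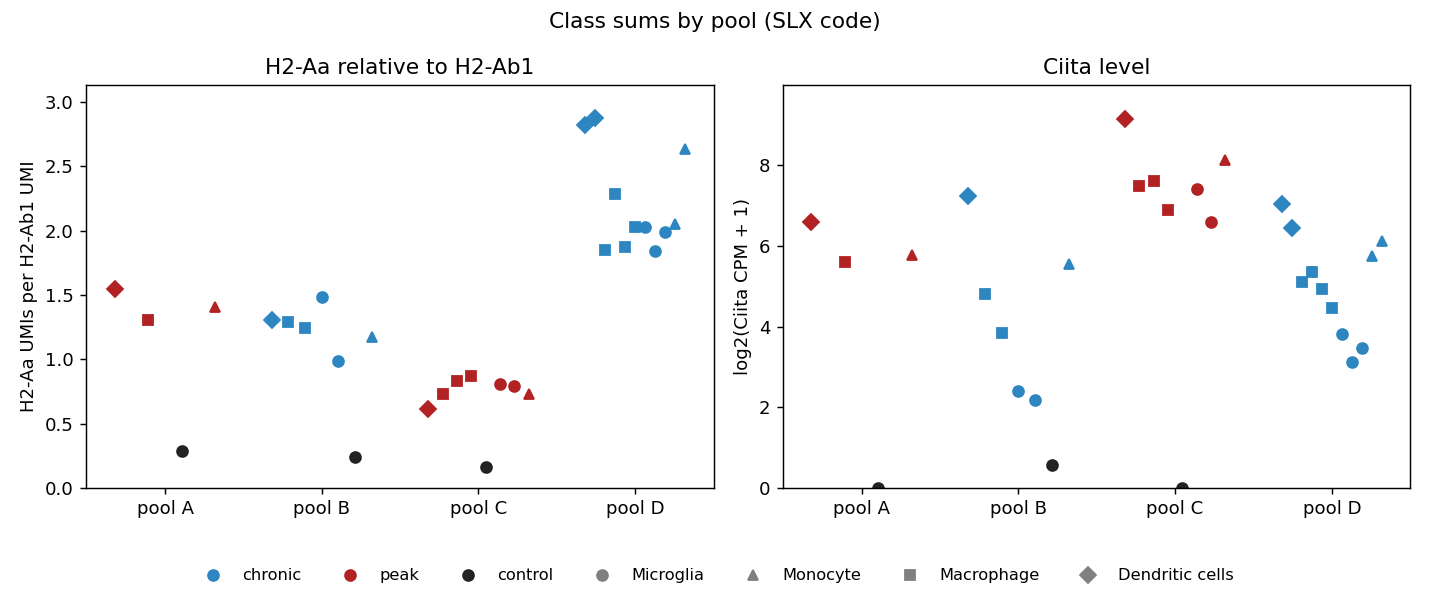
Left, H2-Aa UMIs per H2-Ab1 UMI in each sum of a class and library, by pool; right, Ciita as log2(CPM + 1) in the same sums, with colour for stage and shape for class. The ratio lies highest in pool D and, among EAE sums, lowest in pool C whatever the class. Ciita is high in all pool C sums of EAE and at or near 0 in control microglia of every pool that holds them.

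The higher sums came from most of the microglia at peak and from a varying part of them in chronic EAE. To compare cells at 1 depth, each was thinned to 1000 UMIs, which left out 80 shallower cells of the chronic, 11 of the peak and 14 of the control libraries. At least 1 Cd74 UMI was then found in 94.7, 97.3 and 61.4% of microglia of chronic libraries a, b and c, in 97.9 and 97.1% of peak libraries a and b, and in 8.84, 4.88 and 5.08% of control libraries a, b and c. The share with H2-Ab1 was 44.0, 57.9 and 27.5% in chronic, 87.9 and 88.6% in peak and 2.72, 1.83 and 1.98% in control libraries. In both genes no EAE library overlapped the controls, and chronic library c was the lowest EAE library. H2-Aa was found in 48.8% ± 24.0 of chronic microglia (SD, n = 3), 87.6% ± 0.211 of peak microglia (n = 2) and 0.292% ± 0.145 of control microglia (n = 3). With 3 or fewer libraries a group, an exact two-sided permutation test could not go below p = 0.1, the value reached by all shares of the 8 genes between peak and control, which became 0.141 after Benjamini-Hochberg adjustment over 24 comparisons. The shares of H2-Aa, H2-Ab1, H2-Eb1, Cd74 and Ciita reached the same p between chronic and control microglia, while the share of Cd74 gave an exact permutation p of 0.6 between chronic and peak. T cells, which in the mouse do not transcribe class II genes, gave a background, which free RNA and mixed droplets can raise: Cd74 was found in 12.8% to 54.7% and H2-Ab1 in 0% to 11.5% of T cells of 8 EAE libraries at the same depth, at unthinned medians of 2860.5 to 7258 UMIs. The peak resident libraries held 6 and 10 T cells, too few for a value, so their own background was not measured. Every EAE library of resident microglia exceeded both ranges, and the control libraries lay below the Cd74 range.

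After thinning, which discards most UMIs of the peak cells, Ciita was found in fewer cells at every stage than Cd74 or H2-Ab1. It was found in 15.4 and 7.15% of microglia in peak libraries a and b, with exact 95% binomial intervals of 12.3% to 19.0% and 5.36% to 9.32%. In chronic libraries it was found in 0.775, 0.646 and 0.468%, and in control libraries in 0, 0 and 0.0620%, where 0 cells allow a share of up to 0.170% in library a and 0.261% in library b. The T cell background for Ciita ran from 0% to 0.725%, so the chronic shares of 0.646% and 0.468% lie within it and that of 0.775% is just above. This background is itself poorly measured: the 228 T cells of the chronic resident libraries held 7 Ciita UMIs, all in library b. Without thinning the shares were 2.09, 2.83 and 1.30% in chronic, 52.3 and 39.1% in peak and 0, 0 and 0.0618% in control libraries, with more UMIs per cell at peak. Intervals and floors cover counting error only. Of cells with a Ciita UMI in chronic libraries a, b and c, 10 of 15, 11 of 13 and 15 of 20 held H2-Ab1. So did 43.8% of 1920, 57.7% of 1999 and 27.3% of 4258 cells without a Ciita UMI. In peak libraries a and b H2-Ab1 was found in 90.5% of 74 and 100% of 50 cells with a Ciita UMI. It was found in 87.4% of 406 and 87.7% of 649 cells without. Ciita UMIs per 1000 UMIs of H2-Aa, H2-Ab1, H2-Eb1 and Cd74 averaged 0.491 ± 0.246 in chronic microglia (SD, n = 3) and 6.66 ± 3.07 in peak microglia (n = 2). That sum includes Cd74, whose proportion moves with the pool. Per 1000 H2-Ab1 UMIs alone, Ciita stood at 8.58, 6.70 and 6.53 UMIs in the 3 chronic libraries, against 46.5 and 24.8 UMIs in the 2 peak libraries. This ratio also differed between pools within peak EAE. In infiltrating dendritic cells, macrophages and monocytes it stood at 17.5, 12.8 and 19.2 UMIs in library a (pool A). In library b it stood at 67.0, 26.8 and 52.5 UMIs, in pool C, the pool of both peak microglia libraries. The part of the pool in this ratio was not tested.

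**Figure D3:**
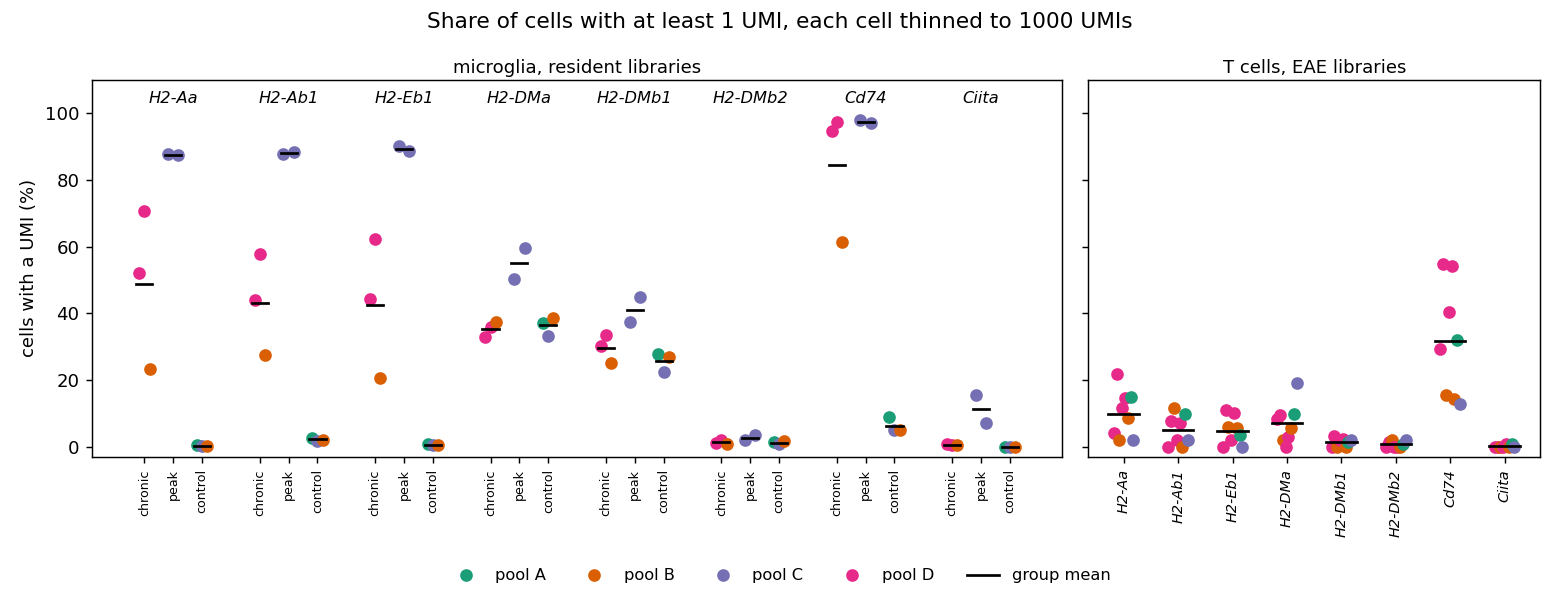
Share of cells with at least 1 UMI of each of the 8 genes after thinning to 1000 UMIs per cell, in percent with 1 point per library, for microglia of chronic, peak and control resident libraries (left) and for T cells of 8 EAE libraries as background (right). Cd74 was found in 61.4% to 97.9% of microglia in every EAE library and in 4.88% to 8.84% of control microglia, whereas Ciita stayed at or below 15.4%.

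The sum of H2-Aa, H2-Ab1, H2-Eb1 and Cd74 UMIs per thinned cell gives the load of each cell. Its median was 11, 22.5 and 1 UMIs per microglial cell in chronic libraries a, b and c, 18 and 21 in peak libraries a and b, and 0, 0 and 0 in the control libraries. At least 10 such UMIs were found in 54.7, 72.5 and 11.8% of chronic, 84.0 and 85.3% of peak and 0.0567, 0.0871 and 0.0929% of control microglia. The peak libraries were alike and the chronic libraries spread widely, with library c closest to the controls. In control resident libraries most UMIs of the antigen-presenting chains and Cd74 lay outside microglia, and most of the H2-DM UMIs within them. Microglia were 6155 of their 6205 cells and held 154 of 1812 H2-Aa UMIs (8.50%), while 18 CNS-associated macrophages held 28.3% and 17 other macrophages 37.9%. Of the control UMIs, microglia held 7.69% for H2-Eb1, 32.6% for H2-Ab1 and 27.4% for Cd74, but 98.3% for H2-DMa, 97.0% for H2-DMb1 and 98.9% for H2-DMb2. In chronic resident libraries microglia held 80.7% and in peak resident libraries 93.6% of the H2-Aa UMIs.

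The deposited clusters divided microglia in ways that followed stage. Cluster 9 held 90.4, 87.8 and 94.6% of control microglia. Cluster 3 held 68.9 and 56.4% and cluster 4 held 22.6 and 35.1% of microglia in peak libraries a and b. Chronic libraries a and b were spread over clusters 4, 3 and 1, while cluster 1 held 62.3% of microglia in chronic library c. Since clusters were made from the expression of these same cells, the values here are descriptions. H2-Ab1 stood at 303, 320.1 and 239.8 CPM in cluster 1 of chronic libraries a, b and c, at 1029, 1734 and 779.5 CPM in their cluster 4 and at 949, 1687 and 1294 CPM in their cluster 3. At peak it stood at 3695 and 3903 CPM in cluster 3 and 3979 and 4161 CPM in cluster 4, above every chronic library in the same cluster. In cluster 9 of the control libraries it stood at 28.2, 19.1 and 21.1 CPM. Of clusters 3 and 4, cluster 3 held more Ciita in every chronic and peak library, which stood at 2.90, 1.08 and 2.14 CPM in cluster 1, 5.40, 9.09 and 4.16 CPM in cluster 4 and 15.1, 15.9 and 9.38 CPM in cluster 3 of chronic libraries, against 83.6 and 59.0 CPM in cluster 4 and 193 and 113 CPM in cluster 3 of peak libraries. Cd74, lowest in chronic library c as a whole, was lowest there within a cluster too and stood at 18059, 28944 and 4701 CPM in cluster 4 of chronic libraries a, b and c.

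**Figure D4:**
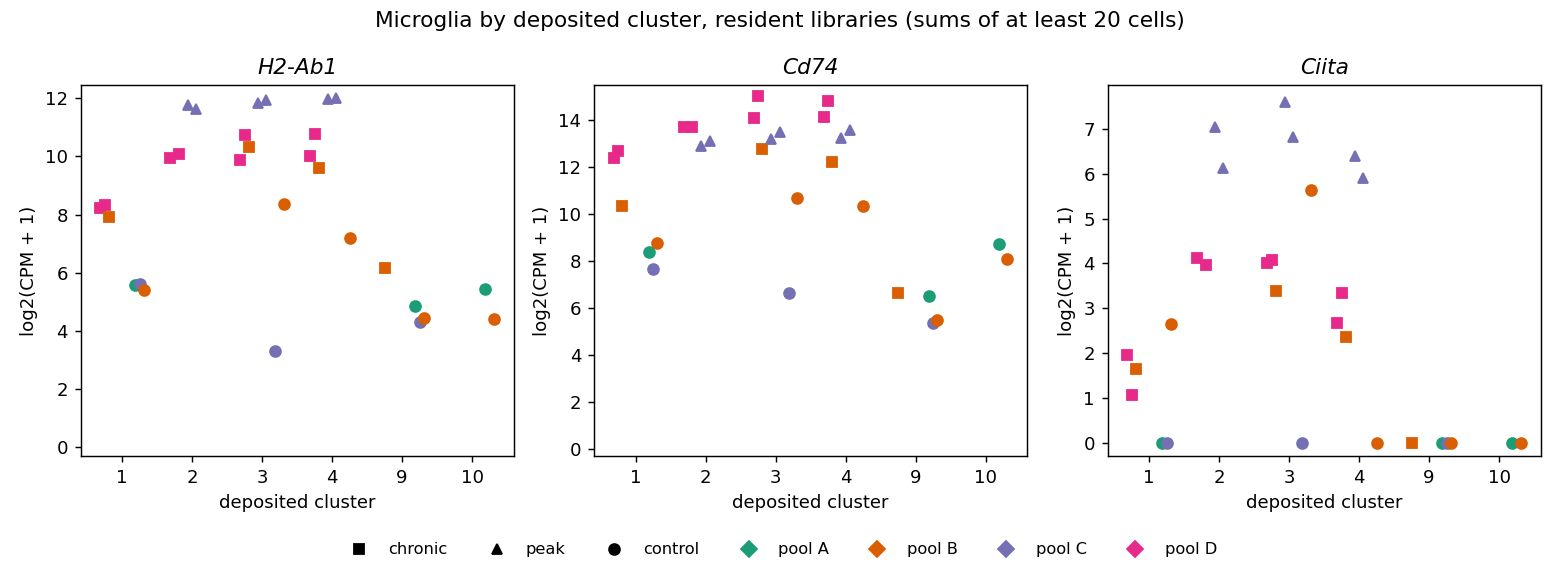
H2-Ab1, Cd74 and Ciita in microglia of the resident gate by deposited cluster, as log2(CPM + 1), each point a library with at least 20 cells in that cluster, with shape for stage and colour for pool. Within clusters 3 and 4 the peak libraries lie above the chronic libraries for H2-Ab1 and Ciita, and within clusters 1, 3 and 4 chronic library c is the lowest chronic point of Cd74.

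Of the 7 genes of the promoter-bound complex (Rfx5, Rfxap, Rfxank, Creb1, Nfya, Nfyb and Nfyc), none passed the test between peak and control microglia, with a median log2 fold change of -0.16, against 7.17 for the 8 class II genes and -0.0096 for all genes. Creb1 (-0.67 ± 0.22) and Nfya (-0.76 ± 0.25) were lower in chronic than in control microglia on the log2 scale, 2 of 7 where 28.3% of all genes tested were called. Nfya (-1.16 ± 0.27) and Rfx5 (-0.88 ± 0.27) were lower in chronic than in peak microglia, 2 of 7 where 21.7% of all genes tested were called and 11.9% were lower. Of 8 genes of the interferon-gamma signal, 4 were higher and 2 lower at peak than in controls, and 2 higher and none lower in chronic EAE than in controls, where 30.0% and 28.3% of all genes tested were called. Irf1, a transcription factor that drives Ciita, stood at 167, 164 and 79.0 CPM in chronic, 311 and 231 CPM in peak and 61.4, 58.3 and 59.6 CPM in control libraries. Its log2 fold change was 2.48 ± 0.32 at peak and 1.67 ± 0.29 in chronic EAE, both against controls. Socs1, a feedback inhibitor of the receptor's kinases, had log2 fold changes of 3.39 ± 0.52 at peak and 1.94 ± 0.48 in chronic EAE. Ifngr1, a chain of the receptor, fell at peak (-1.83 ± 0.29) and was higher in chronic than in peak microglia (1.36 ± 0.28). Jak1, a kinase of the receptor, also fell at peak (-0.93 ± 0.22). Between chronic and peak, 3 of the 8 were higher and 2 lower, beside the same shares of all genes, 21.7% called and 11.9% lower. Jak2 (-1.34 ± 0.27) and Irf8 (-0.92 ± 0.26) were lower and Jak1 (0.76 ± 0.22) was higher besides Ifngr1.

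Among 9 genes that make or edit peptides for class II, 8 were in the matrix and 7 were tested. Of these, 2 were higher and 1 lower at peak than in controls, and 4 were higher and none lower in chronic EAE than in controls, beside 16.0% and 15.0% of all genes tested called higher. Ctsb, a lysosomal protease, had log2 fold changes of 1.74 ± 0.31 at peak and 2.19 ± 0.30 in chronic EAE, and H2-Oa, a chain of the H2-DM inhibitor H2-O, 1.74 ± 0.37 and 1.21 ± 0.34. Ctsl (1.65 ± 0.33) and Ctss (1.09 ± 0.32), proteases that cut Cd74, were called higher in chronic EAE against controls, and Ctsl also in chronic against peak (1.73 ± 0.38). March1, a ligase that sends class II molecules to degradation, fell at peak (-0.89 ± 0.23). Of 6 genes for signals that accompany presentation to T cells, 2 were higher and 1 lower at peak than in controls, and 3 were higher and 1 lower in chronic EAE, beside the same shares of all genes. The inhibitory ligand Cd274 had log2 fold changes of 4.14 ± 0.32 at peak and 2.16 ± 0.29 in chronic EAE, Cd40 had 4.07 ± 0.59 and 3.28 ± 0.56, and Cd80 was lower in both (-1.26 ± 0.31 and -1.29 ± 0.26). Cd83, which stabilises class II at the surface, was higher in chronic EAE against controls (1.32 ± 0.22) and against peak (0.83 ± 0.25), where Cd274 was lower (-1.98 ± 0.29).

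Dendritic cells, monocytes and macrophages of the infiltrating gate carried the class II genes at both stages, and in chronic EAE they held more Ciita than resident microglia. In dendritic cells H2-Ab1 stood at 3581, 4837 and 9615 CPM in chronic libraries a, b and c and at 5500.3 and 8502 CPM in peak libraries a and b. Cd74 stood there at 61556, 76525 and 43309.6 CPM in chronic and 29558 and 15732 CPM in peak libraries, and Ciita at 131, 85.6 and 151 CPM in chronic and 96.3 and 569.8 CPM in peak libraries. These sums rest on 27 to 134 cells a library. Monocytes had Ciita at 53.3, 68.3 and 46.2 CPM in chronic and 53.8 and 281 CPM in peak libraries, and macrophages at 33.4, 40.0 and 27.1 CPM in chronic and 47.6 and 180.4 CPM in peak libraries. In chronic EAE all 3 infiltrating classes lay above the resident microglia (7.70, 10.0 and 3.51 CPM), while at peak the microglia (171 and 96.0 CPM) lay within the range of the infiltrating classes. That range spans 2 pools. Both peak microglia libraries are in pool C, and all 3 classes of infiltrating library b, of the same pool, lay above them. The classes of library a, in pool A, stood at 47.6 to 96.3 CPM. H2-Ab1 of macrophages (1668, 3699 and 3417 CPM in chronic, 3716 and 6726 CPM in peak libraries) and monocytes (1714, 3798 and 5276 CPM in chronic, 2799.7 and 5351 CPM in peak libraries) overlapped between stages. T cells of the infiltrating gate, as background, had H2-Ab1 at 20.9, 85.9 and 101 CPM in chronic and 86.7 and 52.7 CPM in peak libraries. Their Ciita ran from 0 to 20.9 CPM in chronic libraries (4 UMIs in 140 cells), a range that holds the resident microglia of chronic EAE.

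After the filter on low counts, no gene of the 8 differed between chronic and peak EAE past the threshold in monocytes (0.101% of 7920 genes called), macrophages (0 of 9219 genes called) or dendritic cells (0 of 4831 genes called) by edgeR's quasi-likelihood test. At an unadjusted p under 0.05 the numbers of genes were 691, 710 and 392, and DESeq2 called 56, 37 and 18. Ciita had log2 fold changes, chronic over peak, of -1.45 ± 0.52 in monocytes (adjusted p = 0.442), -1.59 ± 0.47 in macrophages (adjusted p = 0.492) and -1.13 ± 0.61 in dendritic cells (adjusted p = 0.668). With no filter on low counts the same test called Ciita lower in chronic monocytes (-1.48, adjusted p = 0.0159) and macrophages (-1.57, adjusted p = 0.00555), so these calls depend on the filter. Cd74 had 1.46 ± 0.53, 1.02 ± 0.61 and 1.57 ± 0.63 in the same order of classes, with adjusted p of 0.451, 0.716 and 0.598. H2-Ab1 had -0.072 ± 0.49, -0.69 ± 0.48 and 0.050 ± 0.57, the last with -0.24 when scaled by library size alone. The standard errors are wide against these sizes, with 3 chronic and 2 peak libraries, so in the filtered fits differences of this size could not be told from none.

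**Figure D5:**
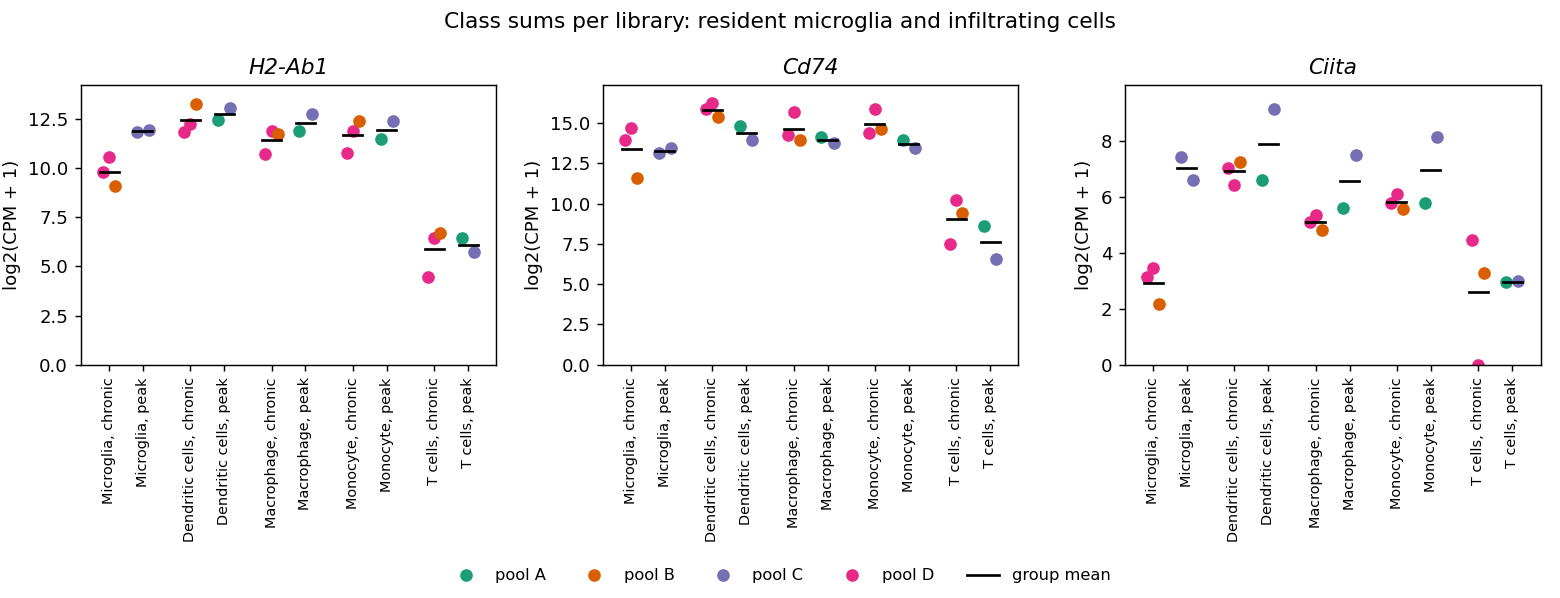
H2-Ab1, Cd74 and Ciita as log2(CPM + 1) per library in resident microglia and in dendritic cells, macrophages, monocytes and T cells of the infiltrating gate, chronic left of peak, coloured by pool, with a bar at the mean of the log2 values. Dendritic cells lie high for all 3 genes, and T cells lie lowest for H2-Ab1 and Cd74. For Ciita, chronic microglia lie below the chronic dendritic cells, macrophages and monocytes and overlap the chronic T cells.

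Macrophages were numerous enough to compare the gates in chronic EAE, but sat in different clusters: 26 of 68, 37 of 58 and 27 of 52 resident macrophages of libraries a, b and c were in clusters 3 and 4, which hold mostly microglia, against 1 of 350, 32 of 265 and 3 of 199 infiltrating ones, and most of the others in cluster 6. In the resident gate H2-Ab1 stood at 1328, 2620.5 and 2823 CPM and Ciita at 29.8, 21.1 and 13.3 CPM, against 1668, 3699 and 3417 CPM and 33.4, 40.0 and 27.1 CPM in the infiltrating gate, in libraries a, b and c. None of the 8 genes was called (0 of 7177 genes called, 302 at an unadjusted p under 0.05, 19 by DESeq2), and their log2 fold changes, resident over infiltrating, ran from -0.61 (Ciita) to 0.075 (H2-DMb2). Summed over all cells of a library, none of the 8 genes was called between the infiltrating and the resident gate at peak (18.8% of 11787 genes called). In chronic EAE Ciita (2.56 ± 0.55, adjusted p = 0.0403) and H2-DMb2 (2.48 ± 0.54, adjusted p = 0.0432) were higher in the infiltrating gate on the log2 scale, 2 of 8 where 1.59% of 11787 genes were called and 1.59% were higher. Ciita kept this call without chronic infiltrating library b or either peak infiltrating library and lost it without any other library, and H2-DMb2 kept it only without chronic infiltrating library a or b (adjusted p up to 0.203 and 0.213). With the pool as a term the adjusted p was 0.0823 for Ciita and 0.151 for H2-DMb2. Such sums mix classes, with microglia at 81.2% of the cells of chronic infiltrating library b, so a higher share of a class and more RNA per cell cannot be told apart, and dendritic cells made up 1.48% to 24.2% of chronic infiltrating libraries and 0.136% to 0.266% of chronic resident libraries. The difference of the gate effect between chronic and peak EAE was called for none of the 8 genes (0.00848% of 11787 genes called, 1031 at an unadjusted p under 0.05; 2.30 ± 0.82 for Ciita, adjusted p = 0.423; 2.38 ± 0.83 for H2-DMb2, adjusted p = 0.421).

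The share of H2-DMb2 among the beta chains of H2-DM was higher in dendritic cells than in microglia, as a description with no test. H2-DMb2 made up 12.4% to 27.3% of the H2-DMb1 and H2-DMb2 UMIs in chronic dendritic cells and 23.6% to 30.6% in peak dendritic cells. In microglia it made up 2.34% to 3.69% in chronic, 5.38% to 5.45% in peak and 3.62% to 3.97% in control libraries, and it reached at most 6.90% in macrophages. As the copies are highly similar, this share depends on how reads common to both were treated. The dendritic cell markers were nearly absent from microglia: 8 of them summed to 1.92 to 4.93 CPM in chronic, 2.05 to 5.72 CPM in peak and 4.74 to 7.57 CPM in control microglia, with Flt3, Cd209a, Clec9a and Ccr7 at 0 in both peak libraries, against 654 to 861 CPM in chronic and 642 to 646 CPM in peak dendritic cells. The 4 B cell markers in the matrix, of cells that also carry class II, summed to 17.6 to 31.7 CPM in chronic, 10.7 to 14.7 CPM in peak and 35.6 to 69.6 CPM in control microglia, highest in the controls. The 5 monocyte markers summed to 2.23 to 4.59 CPM in chronic, 13.8 to 38.8 CPM in peak and 2.52 to 7.20 CPM in control microglia, highest at peak. The 6 macrophage markers summed to 38143 to 53337 CPM in chronic, 24977 to 26476 CPM in peak and 11748 to 13997 CPM in control microglia, most of it from Apoe and C1qa, which microglia also transcribe. Of this list, Ms4a7 stood at 68.7, 111 and 68.1 CPM in chronic, 6.91 and 5.69 CPM in peak and 1.03, 0 and 0.290 CPM in control microglia, and Fn1 at 273, 134 and 83.3 CPM in chronic, 56.0 and 67.7 CPM in peak and 0.736, 0.369 and 1.16 CPM in control microglia. The macrophage markers thus moved with stage, and their part in the results was not tested. Leaving out every microglial cell with a UMI of a dendritic, B or T cell marker, or of a monocyte marker, choices made after seeing the data, left the number of the 8 genes called at 8 between peak and control, 6 between chronic and control and 4 between chronic and peak in both cases. With all microglia, 30.0%, 28.3% and 21.7% of all genes were called in these comparisons. The shares in the refits are not given here, so the kept counts do not set the 8 genes apart.

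Over the 30 sums of microglia (the 8 resident ones and those of chronic infiltrating libraries b and c), macrophages, monocytes and dendritic cells, the mean of log2(CPM + 1) of H2-Aa, H2-Ab1, H2-Eb1 and Cd74 was compared with 5787 genes. Its Pearson correlation was 0.83 with Ciita, 0.70 with H2-DMb1, 0.45 with H2-DMb2 and 0.33 with H2-DMa. The genes most alike outside the 8 were Rps20 (0.933), Slamf7 (0.931), Rpl31 (0.917), Il2rg (0.909), Cd52 (0.909), Fxyd5 (0.895), Rpl24 (0.888) and Hint1 (0.879). Rps20, Rpl31 and Rpl24 encode ribosomal proteins, Slamf7 and Cd52 surface proteins of immune cells, and Il2rg the common cytokine receptor chain. Classes of 1 library share its depth and its pool, and the 3 control sums stand apart from the rest, so these values are descriptions.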

How the data were processed

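Live-sorted spinal cord cells were profiled by 10x Genomics single-cell RNA sequencing, and reads were processed with Cell Ranger 3.1.0 on GRCm38 (mm10) and further in R 4.1.3, per the submitters' processing notes. The authors deposited whole-number UMI counts per gene and cell, normalised to nothing, and a cell table with class, cluster, gate and an SLX code, taken here as the sequencing pool. Its libraries were matched to groups by its condition and gate columns, whose numbers of libraries equal those of the samples, and are not tied to single samples. The deposited table's percent of mitochondrial UMIs (at most 5) and log10 of total UMIs per cell were used for checks only. It marks 0 doublets, and no doublet caller was run. The genome annotation behind the counts was not given in the sources used here.

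Counts were summed per library and deposited class where at least 20 cells were present, and tested in edgeR 4.0.16 (R 4.3.3) by the quasi-likelihood test with TMM scaling, filterByExpr, and Benjamini-Hochberg adjustment over all genes tested, called under 0.05. The 3 microglia comparisons shared 1 fit over 8 libraries. The standard errors given beside edgeR's log2 fold changes were derived, as the absolute log2 fold change divided by the square root of the test's F statistic. Replicates varied by a biological coefficient of 21.4% in microglia. DESeq2 1.42.0, other scalings, no filter, the pool as a term, thinning and leaving out each library were alternatives. CPM are UMIs per 1000000 UMIs of the class sum. Shares of cells were taken after thinning each cell to 1000 UMIs (left out if shallower), with Clopper-Pearson 95% intervals and exact permutation tests over libraries (scipy 1.17.1). The floor for a count of 0 was 3 UMIs or cells. The fits were also run on simulated counts with known changes, a fixed dispersion and no pool effect. As pools follow stage in the real data, that run cannot show how the pool affects the calls. Comparisons between classes, clusters and pools are descriptions. The 8 genes, the other lists and the markers were chosen with earlier results of these data known. A few genes of these lists are not reported here and stay out of their counts and sums. From each other list, up to 4 genes called in a comparison were named by smallest p, and the 8 genes most alike were those of highest correlation with a mean log2(CPM + 1) of at least 4; a few genes beyond these were given to complete a contrast, chosen after their values were seen.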

Additional observations from a re-analysis of the deposited data

Results flagged for a closer look

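Microglia in the infiltrating gate entered no comparison of microglia, though they count in the sums over all cells and, from chronic libraries b and c, in the 30 correlated sums. In chronic libraries b (1915 cells) and c (74 cells) most of the 8 genes stood above every control resident library. The share of all genes that did so was not counted, so this does not set the 8 genes apart. Above the controls in chronic infiltrating library b, H2-Aa stood at 3060.1 CPM, H2-Ab1 at 1505 CPM, H2-Eb1 at 1940.2 CPM, Cd74 at 26393 CPM, Ciita at 13.1 CPM, H2-DMb1 at 492 CPM and H2-DMb2 at 16.8 CPM. Above the controls in chronic infiltrating library c, H2-Aa stood at 681 CPM, H2-Ab1 at 459.5 CPM, H2-Eb1 at 502 CPM, Cd74 at 3268 CPM and Ciita at 4.25 CPM. Not above the highest control were H2-DMa in libraries b and c (473 and 404 CPM, against 472, 398 and 494 CPM in control resident libraries), and in library c H2-DMb1 (191 CPM, against 313, 241 and 309 CPM) and H2-DMb2 (4.25 CPM, against 12.7, 9.97 and 11.6 CPM). Microglia of chronic resident library b had 1496 CPM of H2-Ab1 and 26273 CPM of Cd74, and those of chronic resident library c had 537 CPM and 3085 CPM. No test was made of these sums.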

How the results depend on the processing

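No paired analysis was possible because the deposited cell table carries no replicate numbers. Genes called numbered 3326 between peak and control microglia, 3140 between chronic and control microglia, 2401 between chronic and peak microglia, 8 in monocytes, 0 in macrophages, 0 in dendritic cells, 0 in macrophages by gate, 2220 in all cells by gate at peak, 188 in all cells by gate in chronic EAE, 1 for the difference of the gate effects. With the pool as a term they numbered 564 between chronic and control microglia, 70 between chronic and peak microglia, 721 in all cells by gate at peak, 43 in all cells by gate in chronic EAE, 0 for the difference of the gate effects. With microglia thinned to 1000 UMIs per cell they numbered 1812 between peak and control microglia, 2012 between chronic and control microglia, 738 between chronic and peak microglia. When scaled by library size alone they numbered 5295 between chronic and control microglia, 1 in monocytes, 95 in all cells by gate in chronic EAE, 0 for the difference of the gate effects. DESeq2 called 56 in monocytes, 37 in macrophages, 18 in dendritic cells, 19 in macrophages by gate, 593 in all cells by gate in chronic EAE, 77 for the difference of the gate effects. With no filter on low counts they numbered 205 in monocytes, 206 in macrophages, 143 in dendritic cells, 21 in macrophages by gate, 403 in all cells by gate in chronic EAE, 5 for the difference of the gate effects. With DESeq2's size factors the last of these was 0. Scaling by library size alone moved the median log2 fold change of all genes by -0.32 between peak and control microglia, -0.45 between chronic and control microglia, -0.13 between chronic and peak microglia. Signs reversed, all without a call, for H2-DMa (-0.0041, library size alone) and H2-DMb2 (-0.48, pool term) in chronic against control microglia, Cd74 in chronic against peak microglia (-2.54, pool term), H2-Ab1 (-0.24) and H2-DMa (-0.19) in dendritic cells and H2-DMb2 in all cells at peak (-0.16; -0.15, pool term), and H2-DMb2 in macrophages by gate (-0.017, no filter). With 1 library left out at a time, the genes called numbered 1876 to 4125 between peak and control microglia, 1721 to 4919 between chronic and control microglia, 429 to 3558 between chronic and peak microglia, 0 to 135 in monocytes, 0 to 155 in macrophages, 0 to 92 in dendritic cells, 0 to 1 in macrophages by gate, 345 to 2963 in all cells by gate at peak, 0 to 1859 in all cells by gate in chronic EAE, 0 to 215 for the difference of the gate effects, the last at its highest without chronic infiltrating library a. Log2 fold changes then crossed 0 in monocytes for Ciita (-2.17 to 0.032), H2-Ab1 (-0.46 to 0.35), H2-DMb2 (-0.017 to 0.60), in macrophages for H2-Aa (-0.27 to 0.53), H2-DMb2 (-0.26 to 1.13), H2-Eb1 (-0.51 to 0.38), in dendritic cells for Ciita (-1.87 to 0.54), H2-Ab1 (-0.66 to 0.35), H2-DMa (-0.34 to 0.29), H2-DMb2 (-0.037 to 0.76), in macrophages by gate for Cd74 (-0.93 to 0.31), H2-Aa (-0.87 to 0.049), H2-DMb2 (-0.29 to 0.24), in all cells by gate at peak for Ciita (-1.02 to 0.93), H2-DMa (-0.48 to 0.047), H2-DMb1 (-0.0053 to 0.62), H2-DMb2 (-0.16 to 0.42), H2-Eb1 (-0.11 to 0.56), for the difference of the gate effects for Cd74 (-0.23 to 0.91). Chronic minus control shares of microglia ran from -2.52 to 0.34 percentage points for H2-DMa and -0.28 to 0.31 for H2-DMb2, and without thinning stood at -1.14 for H2-DMb1 and -0.36 for H2-DMb2 (-0.10 at 2000 UMIs). The pool term could not be fitted for the infiltrating classes, whose pools follow stage. The causes of these shifts were not tested. Few peak libraries, and few Ciita UMIs in controls, limit what was detectable.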
